A study of Mus musculus with 9 samples.

Results

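The splicing factors described here are the SR proteins (genes named Srsf), the heterogeneous nuclear ribonucleoproteins (hnRNPs, genes named Hnrnp) and the SF3A and SF3B subunits of the U2 small nuclear ribonucleoprotein. They were chosen by symbol and by a raw count of at least 100 summed over the 9 samples, which gave 40 genes of 39017 in the table: 11 SR, 20 hnRNP and 9 SF3 genes. Of 42 rows with these prefixes, the 2 left out were the pseudogenes Hnrnpa1l2-ps2, with 42 reads, and Hnrnpa1l2-ps, with 7. The lowest member kept was Srsf12, with 359 reads, followed by Sf3b4 with 6985. All 40 also passed the filter on low counts and were tested.

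The RNA came from lymph node CD4+ T cells (helper T lymphocytes) of male mice on the C57BL/6 strain. The 4 cKO samples (2, 6, 7 and 8) came from mice that carried CD4-Cre on 1 allele, and the 5 WT samples (1, 3, 4, 5 and 9) from mice without Cre. All 9 carried the floxed Kdm6a allele (floxed/y), which is X-linked, so WT here means Cre-negative and not free of the floxed allele. Kdm6a encodes a demethylase of lysine 27 of histone H3. The Cd4 promoter that drives Cre is active early in T cell development, in precursors that also give rise to CD8 T cells. The age of the mice is not given, and the labels name no stimulation, although the table's name contains the word "stim".

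Splicing removes introns from the primary transcript, and the same transcript can be joined in more than one way. SR proteins bind exons through RNA recognition motifs and recruit the spliceosome through domains rich in arginine and serine, while many hnRNPs oppose this or act from introns. The SF3A and SF3B complexes hold the U2 particle at the branch site, where the reaction begins. T cells change their splicing when activated, and the best known case is Ptprc, which encodes the phosphatase CD45 and loses variable exons under the control of Hnrnpll. The deposited values are read counts per whole gene, so they give the amount of RNA of each factor and not the splicing of any transcript.

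Total counts ran from 20587482 to 26387488 per sample. Levels are given as CPM, counts scaled to a common library size after adjustment by the trimmed mean of M values (TMM), and fold changes as log2 of cKO over WT. A gene passed the test when its Benjamini-Hochberg adjusted p in edgeR's quasi-likelihood test, taken over all 14693 genes tested, was below 0.05. Kdm6a averaged 42.7 ± 1.48 CPM in cKO and 62.7 ± 1.59 CPM in WT (SD, n = 4 and 5), a log2 change of -0.55 (edgeR adjusted p = 2.89e-05). Mitochondrial genes took 2.59% ± 0.138 of counts in cKO and 2.38% ± 0.0572 in WT (SD, n = 4 and 5), and this share differed between the genotypes (two-sided exact permutation p = 0.0159). Its part in the results below was not tested. No label ties each sample to its own mouse, so the spread behind each p-value may be technical.

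The RNA of the splicing factors differed little between the genotypes. Of the 40 genes, 1 rose in cKO (Hnrnpa1), 2 fell (Sf3b6 and Hnrnpf) and 37 did not pass the test. That is 7.5% called, against 15.8% of all genes tested, where 7% rose and 8.82% fell. Leaving out WT 3, WT 4, WT 9, cKO 6, cKO 7 or cKO 8 each left 1 gene called, Hnrnpa1, and the share called over all genes was then between 8.54% and 12.2%. The median log2 change of the 40 was -0.0075 and that of all genes tested 0.0012. The median size of the change, without its sign, was 0.05 for the splicing factors and 0.11 for all genes. In bulk RNA, fewer cells of a type and less RNA per cell cannot be told apart.

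These values came with narrow errors. The median standard error of the log2 change was 0.035 for the splicing factors and 0.075 for all genes tested. The 95% interval of the change lay within 1.25-fold in either direction for 38 of the 40 genes (95%), and for 54.1% of all genes tested. The other 2 were Hnrnpa1 and Srsf12, and all 40 intervals lay within 1.5-fold. The splicing factors were abundant, and a threshold of 100 CPM, set after the values were seen, separates out genes that are measured more precisely. Of the 31 splicing factors with a mean of at least 100 CPM, 1 was called (Hnrnpf), or 3.23%, against 20.3% of the 2631 genes at that level, and all 31 intervals lay within 1.25-fold, against 82.7% of those genes.

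**Figure D1:**
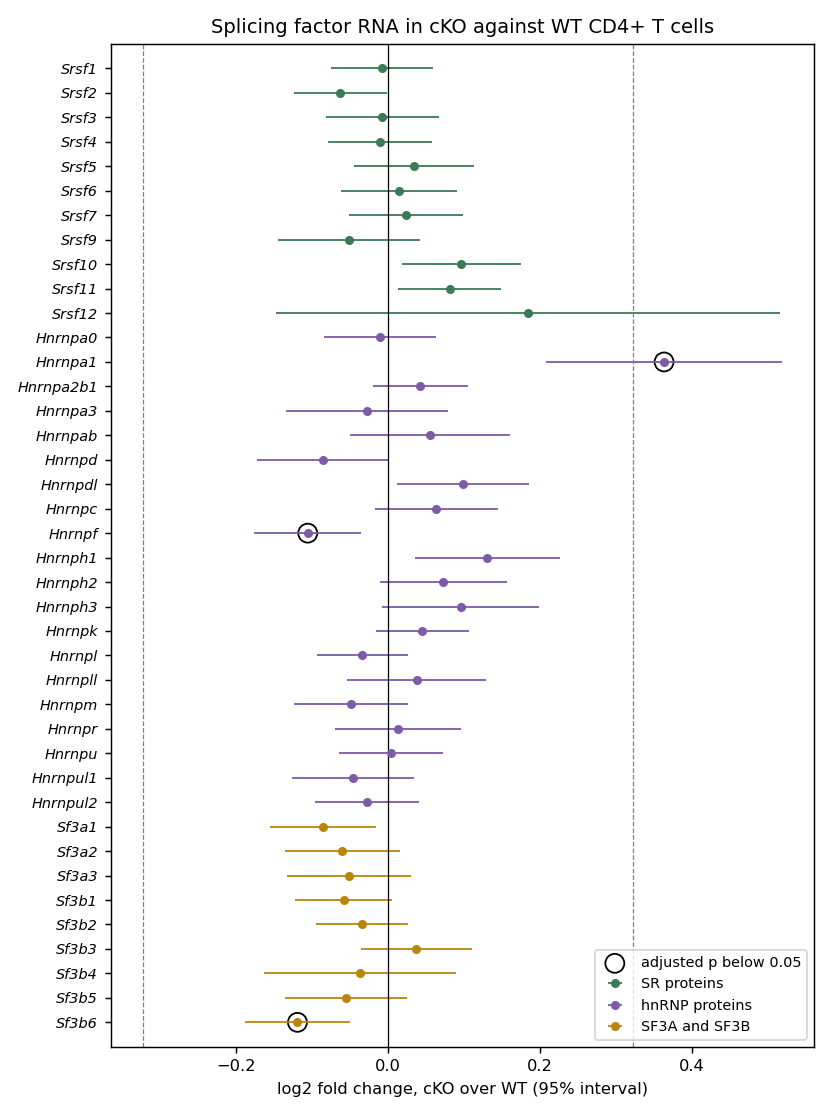
Log2 fold change of each splicing factor, cKO over WT, with its 95% interval on the x axis and the genes down the page by family (green SR, purple hnRNP, gold SF3). Circles mark the 3 genes that passed the test, the dashed lines mark 1.25-fold, and only the intervals of Hnrnpa1 and Srsf12 cross them.

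The spread between samples of a genotype was small as well. The coefficient of variation over samples had a median of 2.84% in cKO and 2.72% in WT, and its range was from 0.734% (Sf3b6) to 10.4% (Srsf12) in cKO and from 0.898% (Hnrnpf) to 15.2% (Srsf12) in WT. Together the 40 genes made up 1.65% of scaled counts in cKO and 1.64% in WT. The 11 SR genes summed to 3606, 3582, 3692 and 3603 CPM in cKO 2, 6, 7 and 8, against 3646, 3608, 3582, 3635 and 3620 CPM in WT 1, 3, 4, 5 and 9. The 20 hnRNP genes summed to 10443, 10495, 10362 and 10786 CPM in cKO, against 10628, 10379, 10079, 10402 and 10410 CPM in WT. For both sums the genotypes overlapped. The 9 SF3 genes summed to 2392, 2400.2, 2377 and 2371 CPM in cKO, against 2469, 2428, 2404, 2452 and 2474 CPM in WT, where the highest cKO value lay just below the lowest WT value.

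**Figure D2:**
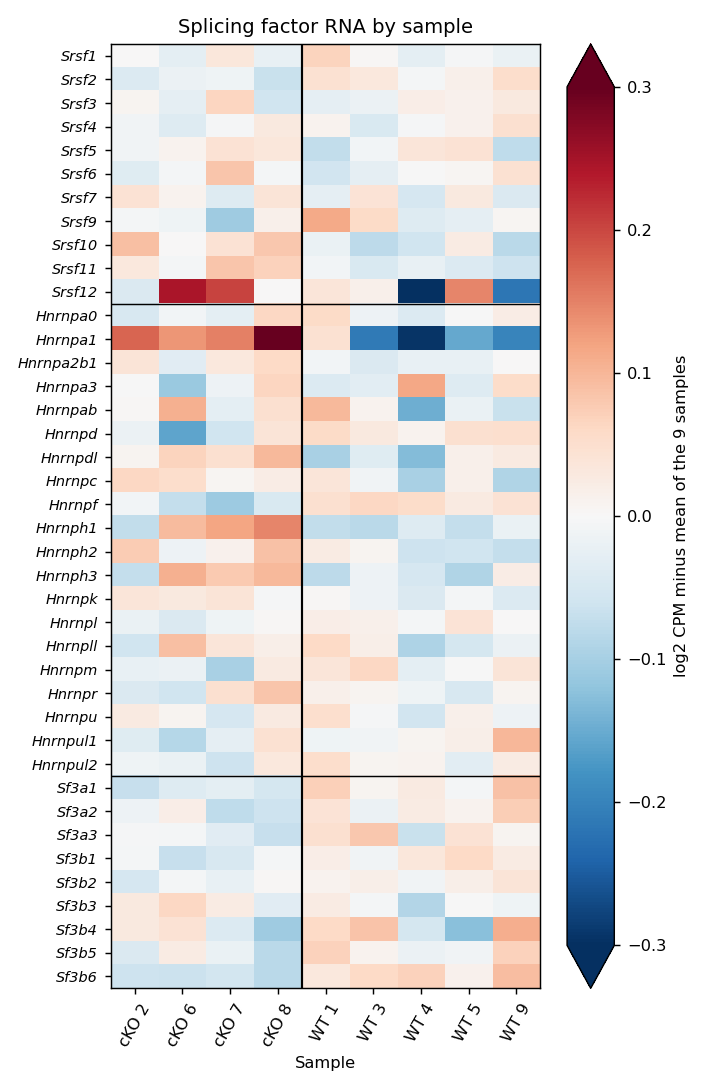
Log2 CPM of each splicing factor (rows) in each sample (columns, cKO left of the line, WT right) minus its mean over the 9 samples. Most cells are pale, Hnrnpa1 is high in all 4 cKO samples and low in 4 of 5 WT samples, and the SF3 rows at the bottom are mostly pale blue in cKO.

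Of the 40 splicing factors, 36 had at least 1 start in the RefSeq promoter table, with 49 starts in all. The upstream 250 bases at these starts had a median GC content of 64%, against 52.4% over all 32851 starts. The GC box (GGGCGG, either strand) was found at 75.5% of splicing factor starts and 32.7% of all starts. The core of ETS factor sites (CCGGAAG, either strand) was found at 32.7% of splicing factor starts and 6.91% of all starts, and the CCAAT box (CCAAT, either strand) at 46.9% and 33.8% in that order. The TATA box (TATAAA, either strand) was found at 8.16% of splicing factor starts and 12.4% of all starts, and the NRF1 site on either strand at 2.04% and 0.782% in that order. These are counts of letters and not of bound sites. All starts came from 27025 genes, more than the 14693 tested here. No set of starts matched for expression or GC content was compared. Whether these shares are particular to splicing factors was not tested.

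The upstream sequences of the 3 genes that passed the test are printed to set the promoters of the changed genes side by side (RefSeq, GRCm38.p6, plus strand, capitals mark any of the 5 motifs above on either strand). That of Hnrnpa1, at chr15:103240147-103240396, holds 4 CCAAT boxes and 2 GC boxes and no ETS core, at 46% GC. That of Sf3b6, at chr12:4817358-4817607, holds 2 GC boxes and 2 ETS cores, at 61.6% GC. That of the first of 4 starts of Hnrnpf, at chr6:117900090-117900339, holds 1 ETS core, at 50.4% GC. RefSeq and GENCODE starts differ, and these stretches are upstream of RefSeq starts. Those of Sf3b6 and Hnrnpf run past the GENCODE starts of the genes, at 4817544 and 117900324.
Hnrnpa1: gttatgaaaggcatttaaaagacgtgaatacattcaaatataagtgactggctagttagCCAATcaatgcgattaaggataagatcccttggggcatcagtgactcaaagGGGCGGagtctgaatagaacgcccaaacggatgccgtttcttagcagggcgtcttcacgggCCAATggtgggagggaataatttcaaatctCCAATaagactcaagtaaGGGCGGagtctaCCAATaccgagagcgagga
Sf3b6: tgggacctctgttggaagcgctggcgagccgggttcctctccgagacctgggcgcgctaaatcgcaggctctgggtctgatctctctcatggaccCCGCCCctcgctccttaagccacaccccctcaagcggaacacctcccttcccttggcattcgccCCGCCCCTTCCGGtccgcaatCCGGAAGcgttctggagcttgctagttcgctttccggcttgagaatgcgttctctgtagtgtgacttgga
Hnrnpf: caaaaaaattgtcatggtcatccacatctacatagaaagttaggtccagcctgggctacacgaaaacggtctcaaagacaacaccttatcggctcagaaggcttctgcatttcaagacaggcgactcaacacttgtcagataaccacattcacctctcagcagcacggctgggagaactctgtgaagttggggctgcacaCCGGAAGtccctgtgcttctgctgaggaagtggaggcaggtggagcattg
Hnrnpa1 and Sf3b6 share the GC box, and Sf3b6 and Hnrnpf the ETS core, and no match overlaps another.

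None of the 11 SR genes passed the test (0 called by DESeq2 and limma-voom without sample weights), and their median log2 change was 0.01. In edgeR, unadjusted p was under 0.05 in 3 of the 11, against 31.1% of all genes tested. Srsf1, the founding SR protein, which selects 5′ splice sites and is also known as SF2/ASF, had 912, 894, 934 and 898 CPM in cKO 2, 6, 7 and 8. In WT 1, 3, 4, 5 and 9 it had 956, 914, 893, 909.95 and 900.4 CPM. The genotypes overlapped throughout, with a log2 change of -0.0080 and a 95% interval from -0.08 to 0.06. Srsf3, Srsf4, Srsf6 and Srsf7, which encode further SR proteins, were as close, with log2 changes of -0.0070, -0.01, 0.01 and 0.02. Srsf5 was at 0.03 and Srsf9 at -0.05.

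Both genotypes were separated without passing the test in Srsf2 and Srsf11. That is 2 of 11 SR genes, where 15.9% of all genes tested had no overlap between the genotypes. Srsf2, which encodes the exon-binding protein SC35, had 685, 696, 699 and 674 CPM in cKO, against 727, 721, 703, 712 and 732 CPM in WT. Every cKO value lay below every WT value, by a log2 change of -0.06 (SE 0.03, edgeR adjusted p = 0.155). Srsf11, which encodes an SR-related protein that binds U2AF, had 312, 304, 324 and 321 CPM in cKO, against 304, 296, 301, 297 and 292 CPM in WT. The lowest cKO value, 304.45 CPM, lay just above the highest WT value, 303.88 CPM, and the log2 change was 0.08 (SE 0.03, edgeR adjusted p = 0.0967). Srsf10, whose product represses splicing when dephosphorylated, was at 155 ± 4.29 CPM in cKO and 145 ± 4.61 CPM in WT (SD, n = 4 and 5), a log2 change of 0.10 (SE 0.04, edgeR adjusted p = 0.0889). With upper-quartile scaling in place of TMM, Srsf10 and Srsf11 passed (edgeR adjusted p = 0.0444 and 0.0434), and Srsf11 also passed in limma-voom with sample weights (adjusted p = 0.0398).

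Srsf12 was the least abundant of the family, at 1.64, 2.03, 1.97 and 1.70 CPM in cKO and 1.74, 1.72, 1.28, 1.89 and 1.45 CPM in WT. Its values overlapped, and its log2 change of 0.18 (SE 0.15, edgeR adjusted p = 0.440) had the widest interval, from -0.15 to 0.52. It was also the largest change among genes that did not pass. That interval holds both 0 and the change of Hnrnpa1.

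Of the 20 hnRNP genes, 1 rose, 1 fell and 18 did not pass (10% called, against 15.8% of all genes tested), with a median log2 change of 0.03. Hnrnpa1 was the gene with the largest change of all 40. It encodes hnRNP A1, an RNA-binding protein that favours exon skipping and antagonises SR proteins. Its level was 37.7, 36.6, 37.1 and 42.7 CPM in cKO 2, 6, 7 and 8, against 34.5, 28.8, 27.2, 29.98 and 29.1 CPM in WT 1, 3, 4, 5 and 9. Every cKO value lay above every WT value, with cKO 8 the highest and WT 1 the highest of its genotype. The means were 38.5 ± 2.81 CPM in cKO and 29.9 ± 2.73 CPM in WT (SD, n = 4 and 5), 28.6% higher in cKO, with a log2 change of 0.36 (SE 0.07, edgeR adjusted p = 0.00720). The call held in each of 20 other settings, and without WT 1 the log2 change was 0.42. Beside this rise, the log2 changes of all 4 CD8 T cell markers were above 0, and 1 passed: Cd8b1, at 14.1 CPM in cKO and 11.6 CPM in WT (edgeR adjusted p = 0.0296). The summed level of the 4, none at 0, ran from 28.3 to 67.4 CPM in cKO and from 19.8 to 31.2 CPM in WT, so the genotypes overlapped. Eomes was at 20.4 ± 12.8 CPM in cKO and 10.9 ± 4.41 CPM in WT (SD, n = 4 and 5). Cd8a was at 2.70 CPM in cKO and 1.80 CPM in WT, and neither passed (edgeR adjusted p = 0.115 and 0.217). The part of these markers in the result was not tested.

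**Figure D3:**
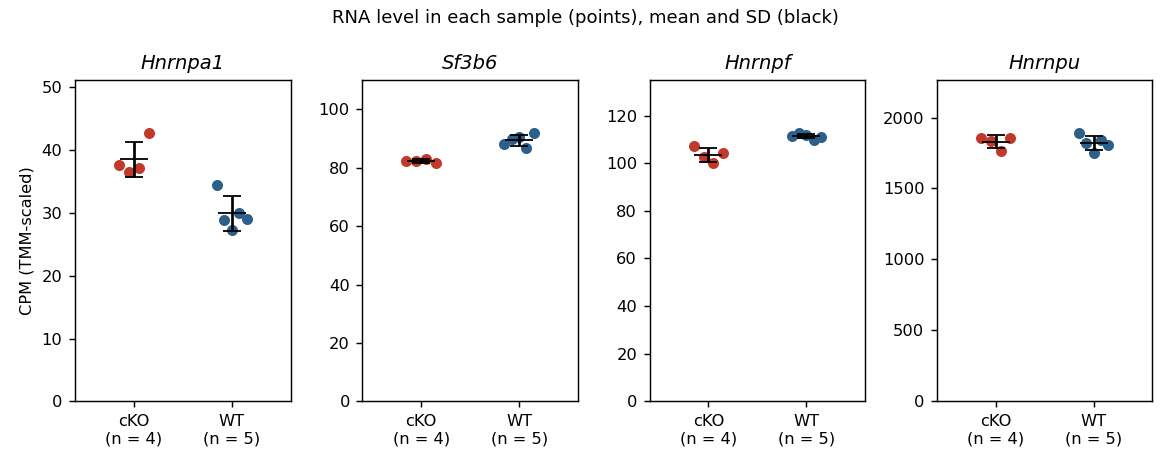
CPM on the y axis, from 0, for the 3 genes that passed the test and for Hnrnpu, the most abundant gene in CPM. Points are samples, black bars are mean and SD (cKO left, n = 4, WT right, n = 5). The genotypes do not overlap in Hnrnpa1, Sf3b6 and Hnrnpf, and they overlap in Hnrnpu.

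The count of Hnrnpa1 depends on how reads of near-identical copies were assigned, which is not given in the sources used here. Hnrnpa1 lies on the plus strand of chromosome 15 from 103240432 to 103246692 (GENCODE M21, mm10). In 50-base windows along its annotated transcripts, 28.2% occurred letter for letter in 20 other genes elsewhere in the genome, 19 of them pseudogenes. The processed pseudogene Gm10052, on chromosome 9 from 123689233 to 123690192, matched Hnrnpa1 transcripts without a mismatch along all 960 bases of its annotated transcript. It held 12862 reads over the 9 samples, against 7077 for Hnrnpa1, or 64.5% of the reads of both. A read from these 960 bases fits both places equally.

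Gm10052 had 65.2, 68.6, 60.1 and 59.8 CPM in cKO, against 65.1, 60.3, 55.3, 58.3 and 57.03 CPM in WT. Its values overlapped, with a log2 difference of 0.10 (SE 0.06, edgeR adjusted p = 0.259). When the reads of 7 pseudogenes that shared at least 5% of windows, Gm10052 among them, were added to Hnrnpa1, an alternative added after the data were seen, the sum was 103.5, 105.8, 97.9 and 103.5 CPM in cKO. In WT it was 100.3, 89.7, 83.2, 88.95 and 86.9 CPM. On this sum Hnrnpa1 was still called (edgeR adjusted p = 0.0279), at 0.19 on the log2 scale (SE 0.05), with WT 1 above cKO 7 so that the genotypes overlapped.

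Other splicing factors also shared sequence with counted pseudogenes, and none of them changed its call when pseudogene reads were added. For the pseudogenes named below the identical runs were shorter, from 194 bases (Gm12696) to 667 bases (Gm11847). The processed pseudogene Gm7964 held 83756 reads, against 93043 for Hnrnpk, which encodes a protein that binds runs of cytosine. Gm7964 shared a run of 568 identical bases with Hnrnpk. Hnrnpk was at 451 ± 5.86 CPM in cKO and 437 ± 6.44 CPM in WT (SD, n = 4 and 5), and Gm7964 at 402 ± 12.8 CPM in cKO and 395 ± 8.98 CPM in WT. Neither passed the test (edgeR adjusted p = 0.291 and 0.658). Pseudogenes also held 37.5% of the joint reads for Sf3b4 (Gm7935), 22.5% for Srsf5 (Gm12966), 22.3% for Hnrnpa3 (Gm11847), 18.4% for Hnrnpc (Gm12696) and 10.9% for Srsf10 (Gm5446). How many of these reads belong to the parent gene cannot be told from the counts.

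**Figure D4:**
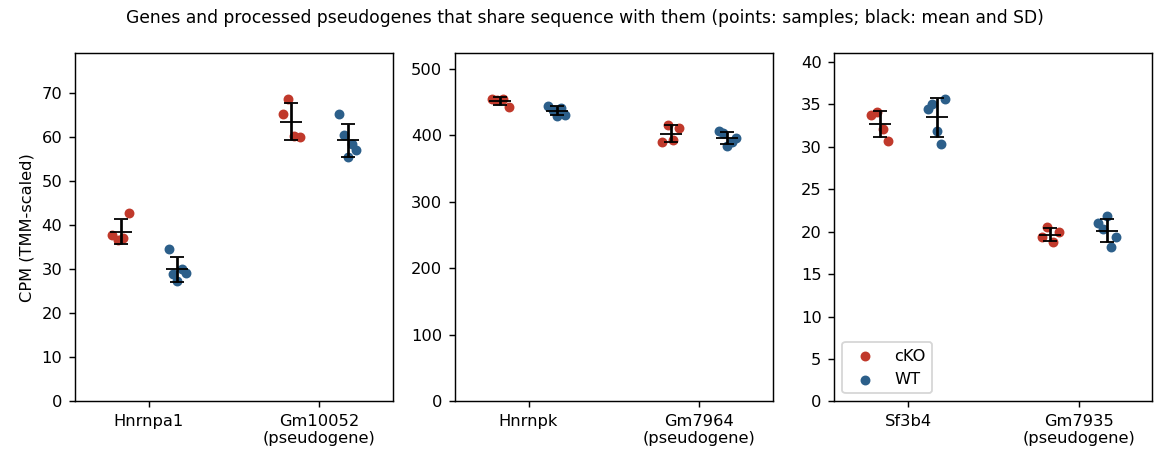
CPM on the y axis, from 0, of Hnrnpa1, Hnrnpk and Sf3b4, each beside the processed pseudogene that shares most sequence with it among those with counts. Points are samples (cKO left of WT in each pair), black bars are mean and SD. Gm10052 lies above Hnrnpa1 in every sample, and the genotypes are apart in Hnrnpa1 alone.

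The other members of the A/B and D group did not pass. Hnrnpa2b1, a packaging protein of nascent transcripts, was at 1496 ± 41.3 CPM in cKO and 1452 ± 16.96 CPM in WT (SD, n = 4 and 5). Hnrnpab was at 1440 ± 59.7 and Hnrnpa0 at 633 ± 21.2 CPM in cKO, against 1385 ± 87.5 and 638 ± 16.7 CPM in WT (SD, n = 4 and 5). Hnrnpa3 had a log2 change of -0.03, though 26.9% of its windows occurred in 45 other genes. Hnrnpd, the AU-rich element binding protein AUF1, was at -0.09 (SE 0.04, edgeR adjusted p = 0.162). Its close relative Hnrnpdl was at 0.10 (SE 0.04, edgeR adjusted p = 0.115).

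The F/H group, whose proteins bind runs of guanine, was split. Hnrnpf had 107, 103, 99.98 and 104 CPM in cKO, against 112, 113, 112, 109.9 and 111 CPM in WT. Every cKO value lay below every WT value, with a log2 change of -0.11 (SE 0.03, edgeR adjusted p = 0.0462). The call was lost in 11 of 20 other settings, with adjusted p up to 0.119, among them each omission of a single sample other than cKO 2. Hnrnpf lies on the plus strand of chromosome 6 from 117900324 to 117925622. Of its windows, 43.2% occurred in 9 genes elsewhere in the genome, and the 5 pseudogenes counted held no more than 27 reads each. The gene 4933440N22Rik, which overlaps Hnrnpf, shared 10.1% of its windows. It held 2471 reads, at a log2 change of -0.19 (edgeR adjusted p = 0.201). How reads in this overlap were assigned is not given in the sources used here.

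Hnrnph1, the most abundant of the group, had 583.2, 656, 667 and 679.6 CPM in cKO, against 583.1, 580.5, 598, 584 and 606 CPM in WT. Of its cKO samples 3 lay above every WT sample and cKO 2 lay among them. The log2 change was 0.13 (SE 0.04, edgeR adjusted p = 0.0635). Without cKO 2 it was 0.18 and passed (edgeR adjusted p = 0.00550), and it also passed with DESeq2 (adjusted p = 0.0457), with upper-quartile scaling (0.0377), with sample weights in limma-voom (0.0171) and with 1 surrogate variable (0.0145). With GC content and length offsets it was 0.07 (edgeR adjusted p = 0.415). Hnrnph2 and Hnrnph3 were at 0.07 and 0.10, with adjusted p of 0.214 and 0.194 in edgeR.

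Single-member hnRNP groups lay near 0. Hnrnpc, whose protein packages introns and competes with U2AF for uridine tracts, was at 0.06, with an interval from -0.02 to 0.14. Hnrnpm was at -0.05 and Hnrnpr at 0.01. Hnrnpl, a regulator of CD45 splicing, had a log2 change of -0.03, with an interval from -0.09 to 0.03. Its relative Hnrnpll had 174, 193, 186 and 184 CPM in cKO, against 189, 184, 170.4, 175 and 179 CPM in WT. These values overlapped, and the log2 change was 0.04 (SE 0.04, edgeR adjusted p = 0.574). Ptprc, the gene of CD45, was at 1787 ± 75.8 CPM in cKO and 1666 ± 101 CPM in WT (SD, n = 4 and 5), also without passing (edgeR adjusted p = 0.173).

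Hnrnpu, which encodes the scaffold attachment factor SAF-A, had 1859, 1836, 1761 and 1857 CPM in cKO, against 1888, 1821, 1753, 1844 and 1806 CPM in WT. Both ranges were nearly the same, and the interval of the log2 change ran from -0.06 to 0.07. Hnrnpul1 and Hnrnpul2, its relatives, were at -0.05 and -0.03.

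The SF3 genes leaned to lower values in cKO, by small amounts. Of the 9 genes, 1 fell (Sf3b6), none rose and 8 did not pass, which is 11.1% called, against 15.8% of all genes tested. In edgeR, unadjusted p was under 0.05 in 2 of the 9 (Sf3b6 and Sf3a1), both lower, against 31.1% of all genes tested. The median log2 change was -0.05, against 0.0012 for all genes tested. The sign was negative in 8 of 9 genes with TMM and in 19 of 20 other settings, the exception being offsets on GC content and gene length, where all 9 were negative. The signs of genes that did not pass are a description. Abundant genes as a whole (2631 averaging 100 CPM or more) also leaned lower, with a median of -0.013, 1424 negative and 1207 positive. The Sm and LSm list described below had a median of -0.07, with 12 genes negative and 2 positive. Over the 160 tested genes of all lists below, 81 were negative and 79 positive. Whether the lean is particular to SF3 genes was not tested.

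Sf3b6, which encodes the subunit p14 that contacts the branch site adenosine, had 82.5, 82.3, 83.0 and 81.5 CPM in cKO 2, 6, 7 and 8. In WT 1, 3, 4, 5 and 9 it had 88.02, 89.8, 90.4, 86.9 and 91.8 CPM. The cKO samples lay close together, with an SD of 0.604 CPM against 1.95 CPM in WT, and every one lay below every WT sample. The log2 change was -0.12 (SE 0.03, edgeR adjusted p = 0.0268), with an interval from -0.19 to -0.05. None of its windows occurred in another gene. The call was lost in 8 of 20 other settings, with adjusted p up to 0.0765, and these were upper-quartile scaling, no count filter and the omission of any 1 of WT 3, WT 4, WT 9, cKO 6, cKO 7 or cKO 8. The fall was largest, at -0.17, with GC content and length offsets. Sf3b6 lies on the plus strand of chromosome 12 from 4817544 to 4827659.

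Sf3a1, the SF3A subunit with ubiquitin-like and SURP domains, had 243, 248, 250.1 and 246 CPM in cKO, against 268, 257, 260.1, 254 and 271 CPM in WT. The genotypes did not overlap, though the log2 change of -0.08 (SE 0.03) did not pass (edgeR adjusted p = 0.0928). Sf3a2 and Sf3a3 were at -0.06 and -0.05. Sf3b1, the large subunit that clamps the branch site helix and is often mutated in myeloid neoplasms, had 697, 666, 676 and 696 CPM in cKO, against 709, 694, 716, 728 and 711 CPM in WT. Its ranges overlapped, at a log2 change of -0.06 (SE 0.03, edgeR adjusted p = 0.203), and it passed with GC content and length offsets (log2 -0.13, edgeR adjusted p = 0.0131), as did Hnrnpd (log2 -0.13, edgeR adjusted p = 0.0426). Sf3b2, Sf3b4 and Sf3b5 were at -0.03, -0.04 and -0.05. Sf3b3 was the only SF3 gene above 0, at 0.04.

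Counted over families, the genotypes did not overlap in 6 of the 40 genes, or 15%, against 15.9% of all genes tested. These were Hnrnpa1 and Srsf11 with cKO above WT, and Sf3b6, Sf3a1, Hnrnpf and Srsf2 with cKO below WT. At unadjusted p under 0.05, 9 of 40 genes passed, or 22.5%, against 31.1% of all genes tested. DESeq2 called 4 of the 40 (10%, against 15.8% of genes with an adjusted p) and limma-voom 3 (7.5%, against 15.6%).

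The order of the levels among splicing factors was nearly the same in both genotypes. Scaled by exonic length, Hnrnpab was highest at 517 ± 21.5 CPM per kb in cKO and 498 ± 31.4 CPM per kb in WT (SD, n = 4 and 5). In cKO, Hnrnpa0 at 236 ± 7.91, Srsf2 at 233 ± 3.92 and Hnrnpa2b1 at 227 ± 6.28 CPM per kb followed, all within their spread of each other (SD, n = 4). In WT, Srsf2 at 243 ± 3.97 and Hnrnpa0 at 238 ± 6.25 CPM per kb did not differ beyond their spread, and Hnrnpa2b1 came next at 220.5 ± 2.58 CPM per kb (SD, n = 5). Srsf1 and Hnrnpu lay close together in both, at 159 and 158 CPM per kb in cKO and at 160.2 and 157 in WT. Leading their own groups, Hnrnph1 was at 111 CPM per kb in cKO and 101 in WT, and Hnrnpl at 104 in cKO and 107 in WT. Hnrnpc was at 73.7 in cKO and 70.5 in WT, Hnrnpk at 69.7 in cKO and 67.5 in WT, and Hnrnpm at 67.3 in cKO and 69.6 in WT. Among SF3B subunits Sf3b2 led at 65.96 CPM per kb in cKO and 67.5 in WT, and among SF3A subunits Sf3a2 at 53.4 in cKO and 55.6 in WT. At the bottom were Hnrnpr, at 6.89 in cKO and 6.82 in WT, and Srsf12, at 0.583 in cKO and 0.513 in WT. Exonic length counts every base in any GENCODE transcript of a gene, so genes with many long isoforms, such as Hnrnpr with 22199 bases, are scaled down more. The pseudogene reads above are not included for any gene, and the order is that without them. This touches Hnrnpa1, at 12.2 CPM per kb in cKO and 9.49 in WT. It also touches Hnrnpk, where Gm7964 held 47.4% of the joint reads, and Sf3b4.

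**Figure D5:**
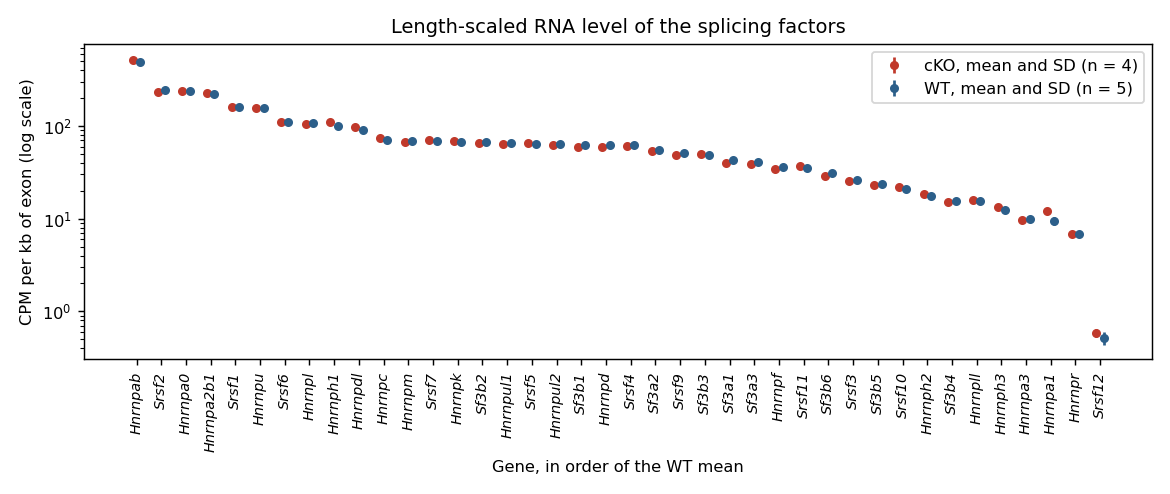
Level of each splicing factor in CPM per kb of exon (log scale) with SD, genes in order of the WT mean, cKO left (n = 4) and WT right (n = 5) of each pair. The pairs lie close together relative to the range from Hnrnpab at the top to Srsf12 at the bottom, and Hnrnpa1 is the pair furthest apart.

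Other lists chosen beside these families covered further splicing machinery and its regulators. They also held 17 genes of nonsense-mediated decay and 16 T cell genes known for alternative splicing. Together the lists were called at a share between that of the splicing factors and that of all genes. Of 160 tested genes in 10 lists, 7 rose, 9 fell and 144 did not pass, which is 10% called against 15.8% of all genes. No gene of the U1 snRNP proteins (10 tested), the U4/U6.U5 tri-snRNP (14), the Prp19 complex and catalytic helicases (14) or the SR protein kinases and phosphatases (11) passed. At unadjusted p under 0.05 in edgeR these lists held 3, 2, 1 and 4 genes, where 31.1% of all genes tested passed. DESeq2 and limma-voom called 0 in each list. The median log2 changes of these lists, in the same order, were 0.05, 0.02, -0.02 and -0.02.

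Of 14 tested partners of the U2 snRNP, which work beside SF3 at the branch site, 1 rose and 3 fell, or 28.6% called against 15.8% of all genes. The difference between these shares was not tested, and limma-voom called 3 of the 14, against 15.6% of all genes tested. Rbm17, which encodes the splicing factor SPF45, rose to 151 ± 4.69 CPM in cKO, against 136 ± 2.12 CPM in WT (SD, n = 4 and 5; log2 0.15, edgeR adjusted p = 0.0124). Puf60, a partner of U2AF at the polypyrimidine tract, fell to 166 ± 2.72 CPM in cKO, against 182 ± 2.16 CPM in WT (SD, n = 4 and 5; log2 -0.13, edgeR adjusted p = 0.0129). The helicase gene Dhx16 was at -0.13 and U2af1l4, a paralog of U2af1, at -0.32 (edgeR adjusted p = 0.0402 and 0.0480), U2af1l4 being named after its values were seen. The list's median was -0.02. Among 14 Sm and LSm proteins, the rings that hold the small nuclear RNAs, 1 fell (7.14%, against 15.8% of all genes). This was Lsm4 at -0.20 (SE 0.03, edgeR adjusted p = 0.00431). The median of this list was -0.07.

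Of 16 SR-related and Tra2 proteins, 1 rose, or 6.25% called against 15.8% of all genes tested. This was Rbm25 at 0.15 (SE 0.04, edgeR adjusted p = 0.0187), and the median of the list was 0.03. Of 34 tested genes in the list of other splicing regulators, 3 rose and 3 fell, with a median of 0.0057. That is 17.6% called, against 15.8% of all genes tested. Mbnl1, a muscleblind protein that regulates alternative exons, rose to 1371 ± 163 CPM in cKO, against 1148 ± 40.8 CPM in WT (SD, n = 4 and 5; log2 0.26, edgeR adjusted p = 0.0221). Celf2, a regulator of alternative exons that binds CUG-rich RNA, fell to 310.5 ± 24.7 CPM in cKO, against 358 ± 10.2 CPM in WT (SD, n = 4 and 5; log2 -0.21, edgeR adjusted p = 0.0193). Rbm38, an RNA-binding target of p53, fell by 0.25 on the log2 scale (edgeR adjusted p = 0.0145).

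Genes of nonsense-mediated decay, the pathway that removes the poison-exon transcripts with which SR and hnRNP genes limit their own output, were called at 11.8%, against 15.8% of all genes. Of 17 tested, 1 rose (Upf3b at 0.25, SE 0.04, edgeR adjusted p = 0.00445) and 1 fell (Dhx34 at -0.27, SE 0.07, edgeR adjusted p = 0.0252), with a median of -0.0093. DESeq2 called 3 of the 17, 1 higher and 2 lower, against 15.8% of genes with an adjusted p. Upf3b is the X-linked adaptor between the exon junction complex and Upf2. Of 16 T cell genes known for alternative splicing, Foxp1 rose (log2 0.14, edgeR adjusted p = 0.0320), Mcl1 fell (log2 -0.19, edgeR adjusted p = 0.0487) and 14 did not pass. That is 12.5% called, against 15.8% of all genes tested, with a median of 0.02.

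Lists of markers for the other cells a lymph node preparation can hold were low. Summed CPM ran from 2.52 to 4.32 in cKO and from 2.98 to 5.04 in WT for 6 B cell genes, of which Cd79b was called lower (0.911 CPM in cKO and 1.72 CPM in WT, edgeR adjusted p = 0.0104). The sums were at most 1.56 CPM in cKO and 0.704 in WT for natural killer cells, 0.146 in cKO and 0.0880 in WT for neutrophils, with 3 of 5 markers at 0 everywhere, 3.75 in cKO and 3.55 in WT for dendritic cells and 0.874 in cKO and 1.03 in WT for erythroid cells. Macrophage and monocyte markers ran from 17.6 to 21.3 CPM in cKO and from 14.7 to 19.2 CPM in WT. The list for stroma and vessels held 86.02 to 107 CPM in cKO and 95.6 to 119 CPM in WT, nearly all from Pecam1, which T cells also express. The 8 CD4 T cell markers summed to between 2724 and 2914 CPM in cKO and between 2723 and 2887 CPM in WT. Of the 8, 2 were called higher and 3 lower, or 62.5%, against 15.8% of all genes tested. Higher were Cd5 (log2 0.23, edgeR adjusted p = 0.00130) and Cd4, at 957 CPM in cKO and 873 CPM in WT (edgeR adjusted p = 0.0480). Lower were Lck (log2 -0.20, edgeR adjusted p = 0.00547), Cd3g (log2 -0.23, edgeR adjusted p = 0.0311) and Cd3d (log2 -0.19, edgeR adjusted p = 0.0476). In every list the ranges of the genotypes overlapped.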

How the data were processed

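The deposited table gives raw counts: integers for each gene and sample, without scaling. Its columns were matched to the sample titles. Per the labels' protocols, libraries were made with a KAPA stranded kit after mRNA enrichment. The submitters' processing notes name bcl2fastq 2.17 and mm10; no source used here names the aligner, the counter, its strand setting or its handling of reads that match several places. A symbol of its own was found for 37595 of 39017 IDs. Positions, lengths and transcripts came from GENCODE M21, which may differ from the authors' annotation.

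The main test was edgeR 4.0.16 (quasi-likelihood, R 4.3.3) on all 9 samples, with TMM, filterByExpr, no covariate and a two-sided test. Intervals of 95% use the test's own degrees of freedom. At the smallest total, 1 CPM is 20.6 counts. Pairs of samples within a genotype differed by more than sampling noise (chi-square for each gene, on average, of at least 3.47). Sequences shared between genes were counted as identical 50-base windows of annotated transcripts on either strand. The scripts were tested on simulated counts. Exact tests were permutations over samples.

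The members, lists and the rule for named genes were chosen with earlier results of these data known. That rule names every called splicing factor with the value in each sample, the most abundant member of each group, the largest uncalled change, and up to 3 called genes per list; others are named to account for every member. The alternatives were DESeq2 1.42.0 and its size factors, upper-quartile scaling, 2 other count filters, leaving out each sample, limma-voom 3.58.1 with and without sample weights, robust fitting and 1 surrogate variable from sva 3.50.0, and, added after seeing the data, offsets on GC content and length, and pseudogene counts added to their parent gene.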

Additional observations from a re-analysis of the deposited data

Results flagged for a closer look

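A sample stood apart from the others of its genotype in 2 of 80 groups of values checked (40 genes in 2 genotypes), where chance flags about 1 in 20 groups. Hnrnph3, an hnRNP of the F/H group, was at 38.7 CPM in cKO 2, against 42.98 to 43.8 CPM in the other cKO samples. Hnrnpul1, a relative of Hnrnpu, was at 604 CPM in WT 9, against 559 to 571 CPM in the other WT samples.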

How the results depend on the processing

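Of 800 log2 fold changes of the splicing factors under the 20 alternatives, 737 kept their direction and their side of the threshold, 19 lost the call, 10 gained it and 34 turned their sign, all of the last in 14 genes that did not pass the test. The call of Hnrnpa1 held in all 20. The number of splicing factors called was 3 (1 higher, 2 lower). With DESeq2's size factors 2 were called (5%, against 15.7% of all genes tested), of which 1 was lower. Upper-quartile scaling called 4 higher and 0 lower (10%, against 15.9%). Without a count filter, where 8.53% of all genes were called, 1 was called (2.5%) and 0 were lower. DESeq2's test and 1 surrogate variable each called 4 (10%), of which 2 were higher, against 15.8% and 17.1% of all genes tested. Sample weights in limma-voom called 5 (12.5%), of which 3 were higher, against 18.3% of all genes tested. Offsets on GC content and length called 5 (12.5%), of which 4 were lower, against 14.6% of all genes tested. In the other lists of related genes upper-quartile scaling called 5 lower and the offsets called 3 higher. The cause was not tested. Upper-quartile scaling put the median of all genes at 0.02 and the share of calls that were higher to 54.2%, against 44.2%.

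Leaving out each sample gave 1 to 4 splicing factors called, 1 to 2 higher and 0 to 2 lower. It gave 9 to 20 in the other lists, 3 to 11 higher and 5 to 9 lower, and 1263 to 2933 over all genes, 531 to 1363 higher and 732 to 1570 lower. The lowest count over all genes was without cKO 6, and it was 1504 without cKO 8 and 1528 without WT 4. Log2 changes that turned their sign ranged from -0.033 to 0.0036 for Hnrnpa0, -0.055 to 0.0041 for Hnrnpa3, -0.012 to 0.036 for Hnrnpr and -0.0093 to 0.023 for Hnrnpu. They ranged from -0.021 to 0.0087 for Srsf1, -0.030 to 0.012 for Srsf3, -0.022 to 0.00093 for Srsf4 and -0.010 to 0.030 for Srsf6.

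Signs also turned, at small values, in these settings. With upper-quartile scaling the log2 change was 0.0081 for Hnrnpa0, 0.010 for Srsf1, 0.0081 for Srsf4 and 0.011 for Srsf3. With sample weights it was 0.0054 for Hnrnpa0 and 0.0058 for Srsf4, and with 1 surrogate variable -0.014 for Hnrnpu, 0.0027 for Hnrnpa3 and 0.0058 for Srsf3. With offsets on GC content and length it was -0.018 for Hnrnpa2b1, 0.017 for Hnrnpa0, -0.0025 for Srsf6, -0.015 for Srsf5, -0.0071 for Hnrnpk, -0.017 for Hnrnpll, -0.030 for Srsf7, 0.020 for Srsf4, -0.0063 for Sf3b3, -0.061 for Hnrnpu and -0.054 for Hnrnpr.

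No paired analysis was possible because no label pairs a cKO sample with a WT sample. Depth limits Srsf12, with 359 reads, most.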
